A study of Mus musculus with 90 samples.

Results

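The loss of the glucocorticoid receptor (GR) from hepatocytes was examined in livers of calorie-restricted mice at ZT8, that is 8 h after lights on and 4 h before the daily meal at ZT12. The members are the libraries whose titles name caloric restriction, ZT8 and a genotype, 3 from GR LKO and 3 from WT livers, 6 of the 90 libraries of the series. Adult male C57BL/6J mice carried the floxed GR gene (GRfl/fl) in both genotypes, and the GR LKO mice carried Alb-Cre in addition, in which the albumin promoter drives Cre recombinase in hepatocytes. All 6 received a lowered amount of chow at the start of the night. For comparison, GR LKO and WT livers on caloric restriction at ZT4 and ZT12 (3 per group) and GR LKO and WT livers of night-restricted fed mice on control diet at ZT8 (4 per group) were used. The 6 libraries held 20.29, 18 and 16.53 M estimated counts (M for mega) in GR LKO and 18.76, 17.77 and 17.86 M in WT, and those on control diet at ZT8 between 12.3 and 14.98 M. In these 6 libraries 3 counts per library, the floor below which no fold was formed, came to between 0.1432 and 0.1738 CPM (counts per M counts, after TMM scaling).

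GR is a nuclear receptor that binds glucocorticoid hormone in the cytoplasm, moves to the nucleus and acts on transcription from glucocorticoid response elements. In rodents the hormone rises towards the dark phase, so that ZT8 lies on its way up. In the liver GR is known for the control of gluconeogenesis, amino acid breakdown, lipid handling and inflammation, and for working with STAT5, the transcription factor of the growth hormone pathway.

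The targeted gene was measured first. *Nr3c1* (ENSMUSG00000024431), which encodes GR, stood at 24.8, 26.4 and 24.9 CPM in the GR LKO livers and at 113, 89 and 104 CPM in the WT livers (GR LKO to WT ratio 0.249, SE 0.10 on the log2 scale, adjusted p = 0.00068 in edgeR). The genotypes lay far apart, and every library matched its label. Other liver cells keep GR, and in whole liver fewer cells of a type and less RNA per cell cannot be told apart. The tissue label was checked with hepatocyte markers, of which 7 were measured. Their summed level was 122000, 118000 and 120000 CPM in GR LKO against 151000, 126000 and 125000 CPM in WT, led by the plasma protein *Alb*. Of these markers *Apoa1*, the main protein of HDL, fell (log2 fold change -0.57, SE 0.11, adjusted p = 0.048 in edgeR). With 1 library left out it passed only without WT replicate 2, at a log2 fold change of -0.62.

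The 3 WT mice were not alike. WT replicate 2 differed from WT replicates 1 and 3 with a chi-square per degree of freedom of 69.76 and 67.41, against 23.44 between those and 11.8 to 13.55 among the GR LKO libraries. It carried 244 CPM of the acute phase protein *Saa1*, where WT replicates 1 and 3 had 4.96 and 9.7 CPM. The iron-binding acute phase protein *Lcn2* stood at 174 CPM in it and at 4.79 and 2.33 CPM in WT replicates 1 and 3. Kupffer and myeloid markers summed to 165, 383 and 223 CPM in the WT and to 199, 157 and 183 CPM in the GR LKO livers, again with WT replicate 2 on top. On the first principal component, which held 36.3% of the variance, it lay at 44.1, beside 21.4 and 17.5 in WT replicates 1 and 3 and -26.5, -26.3 and -30.2 in GR LKO. The labels give no reason for this, so the mouse was kept.

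GR LKO and WT livers differed in 308 of 12070 genes tested, with 141 genes higher and 167 lower in GR LKO (edgeR's quasi-likelihood test, Benjamini-Hochberg adjusted p under 0.05). These are 2.55% of the genes, 1.17% higher and 1.38% lower. At an unadjusted p under 0.05 the number was 2092. The median log2 fold change over all genes was near 0 and moved by less than 0.01 in any other processing. Of the called genes 276 reached 5 CPM in a genotype, and in all 276 the libraries of the genotypes did not overlap, as was the case for 2975 genes, 24.6% of those tested. A log2 fold change of at least 1 in size was reached by 142 called genes. The number of calls depended on the libraries: without GR LKO replicate 1, 2 or 3 it was 56, 77 or 65, and without WT replicate 3 it was 171, while 244 and 315 genes were called without WT replicates 1 and 2. Named genes were affected likewise: of 64 called, 38, 35 and 38 did not pass without GR LKO replicates 1, 2 and 3 and 15, 5 and 23 without WT replicates 1, 2 and 3, always with the same direction. DESeq2, which the authors used, called 698 genes, among them 305 of the 308, and no call changed its sign in any other processing.

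The genes first to be looked at are the classical GR targets, a list of 25 genes of which 22 could be tested. Of these 7 fell, 1 rose and 14 did not pass the test, with a median log2 fold change of -0.87. *Fkbp5* (ENSMUSG00000024222, chr17:28399094-28517527, minus strand), a co-chaperone that binds the GR complex and restrains hormone binding, stood at 35.1, 34.1 and 18.8 CPM in GR LKO against 102, 164 and 141 CPM in WT livers (log2 fold change -2.20, SE 0.27, adjusted p = 0.01 in edgeR). The highest GR LKO liver lay well below the lowest WT liver. *Tsc22d3*, the glucocorticoid-induced leucine zipper GILZ, was measured at 31.4, 27 and 30.5 CPM in GR LKO against 52.9, 62.9 and 58.1 CPM in WT (log2 fold change -0.96, SE 0.10, adjusted p = 0.006 in edgeR). Its values were tight in both genotypes and did not overlap. The transcription factor *Zbtb16* (PLZF) had 2.82, 3.22 and 2.32 CPM in GR LKO against 27.3, 54.3 and 15.8 CPM in WT (log2 fold change -3.53, SE 0.47, adjusted p = 0.013 in edgeR). All GR LKO livers were near the same low level, the WT livers spread widely above it, and the log2 fold change was -2.94 without WT replicate 2. For *Lpin1*, a phosphatidate phosphatase that also acts as a nuclear coactivator, the values were 55.7, 50.9 and 27.8 CPM in GR LKO against 147, 292 and 366 CPM in WT (log2 fold change -2.57, SE 0.38, adjusted p = 0.019 in edgeR). Both genotypes varied, with no overlap. Secreted *Igfbp1*, which binds insulin-like growth factors, stood at 8.35, 4.69 and 7.65 CPM in GR LKO against 20.7, 42.5 and 23.8 CPM in WT (log2 fold change -2.06, SE 0.32, adjusted p = 0.023 in edgeR). WT replicate 2 was the highest, and WT replicates 1 and 3 also lay above all GR LKO livers.

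The lipoprotein lipase inhibitor *Angptl4* had 37.4, 29.3 and 32.5 CPM in GR LKO against 53.7, 73.5 and 65.1 CPM in WT (log2 fold change -0.95, SE 0.14, adjusted p = 0.018 in edgeR). The genotypes did not overlap. *Nfkbia*, the inhibitor that holds NF-kB in the cytoplasm, stood at 23.6, 22.5 and 22.3 CPM in GR LKO against 34.1, 34.6 and 30.3 CPM in WT (log2 fold change -0.53, SE 0.09, adjusted p = 0.025 in edgeR). The difference was small but clear of the spread. It did not pass without WT replicate 1 or 2 or without GR LKO replicate 1, 2 or 3. Its log2 fold change was -0.49 without WT replicate 2. The member that rose was *Cyp2b10*, a cytochrome P450 known as a target of the xenobiotic receptor CAR, with 55.4, 57.4 and 55.9 CPM in GR LKO against 3.89, 0.545 and 5.91 CPM in WT (log2 fold change 4.03, SE 0.55, adjusted p = 0.014 in edgeR). Without WT replicate 3 the log2 fold change was 4.67, and its reads may be shared with other Cyp2b genes, so that its size is uncertain.

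Many other members did not pass the test. The clock gene *Per1*, also a direct GR target, had 58.4, 43.3 and 58.6 CPM in GR LKO against 73.5, 113 and 79.2 CPM in WT (log2 fold change -0.73, SE 0.19, adjusted p = 0.11 in edgeR). *Errfi1*, an inhibitor of EGF receptor signaling, had 600, 516 and 338 CPM in GR LKO against 818, 1390 and 835 CPM in WT (log2 fold change -1.06, SE 0.28, adjusted p = 0.11 in edgeR). In both genes all GR LKO livers lay below all WT livers. *Pck1*, the gate enzyme of gluconeogenesis, stood at 1870, 1060 and 1300 CPM in GR LKO against 2540, 4800 and 2530 CPM in WT (log2 fold change -1.22, SE 0.31, adjusted p = 0.1 in edgeR). Here the WT mean was drawn up by WT replicate 2, without which the log2 fold change was -0.84. *Tat*, which begins the breakdown of tyrosine, had 1200, 855 and 1060 CPM in GR LKO against 1140, 2240 and 1200 CPM in WT (log2 fold change -0.55, SE 0.28, adjusted p = 0.36 in edgeR). Its groups overlapped, and the log2 fold change was -0.16 without WT replicate 2. For the metal-binding protein *Mt1* the values were 18.8, 7.12 and 17.2 CPM in GR LKO against 15.1, 117 and 20.6 CPM in WT (log2 fold change -1.82, SE 0.80, adjusted p = 0.3 in edgeR). WT replicate 2 alone stood high, and without it the log2 fold change was -0.30; for *Mt2* it went from -3.06 to -0.98 and for *Lcn2* from -5.35 to -1.25. The cell cycle inhibitor *Cdkn1a* was low in all 6 livers, at 0.907, 0.95 and 1.16 CPM in GR LKO against 0.79, 1.2 and 0.921 CPM in WT (log2 fold change 0.05, SE 0.31, adjusted p = 0.95 in edgeR). The kinase *Sgk1* had a log2 fold change of 0.31, the Krüppel-like factor *Klf9* -0.44, the phosphatase *Dusp1* -0.36, the mTORC1 inhibitor *Ddit4* -0.33, the pyruvate dehydrogenase kinase *Pdk4* -0.34 and the glutamine transporter *Slc38a2* -0.79, none of them past the threshold in edgeR with all 6 libraries. *Klf9* and *Slc38a2* passed in at least 1 other processing. With WT replicate 2 left out the median of the list was -0.58, with 6 members lower and 1 higher. Between 1 and 7 members were called with each library left out in turn, the fewest without GR LKO replicate 1.

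**Figure D1:**
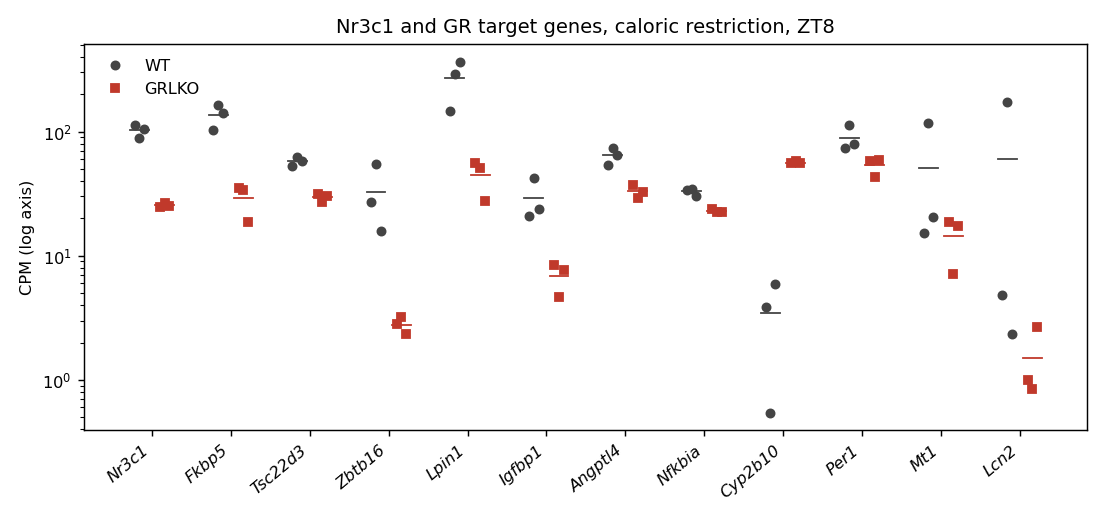
CPM on a log axis of *Nr3c1* and 11 classical GR target genes in each liver on caloric restriction at ZT8, WT in grey circles and GR LKO in red squares (n = 3 each), with a line at each mean. The GR LKO livers lie below all WT livers for *Fkbp5*, *Tsc22d3* and *Zbtb16* and above them for *Cyp2b10*, while 1 WT liver sets *Mt1* and *Lcn2* apart.

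Among the genes with the largest rises in GR LKO livers was *Hao2* (ENSMUSG00000027870, chr3:98874521-98893239, minus strand), a peroxisomal hydroxyacid oxidase, which stood at 9.59, 13 and 8.05 CPM in GR LKO against 0.226, 0.218 and 0.0542 CPM in WT (log2 fold change 5.90, SE 0.38, adjusted p = 0.0011 in edgeR). It was near absence in all WT livers. *Cyp2b13* (ENSMUSG00000040583, chr7:26061497-26096197, plus strand), a cytochrome P450 that is higher in females, had 408, 320 and 377 CPM in GR LKO against 16.7, 2.67 and 2.44 CPM in WT (log2 fold change 5.67, SE 0.73, adjusted p = 0.012 in edgeR). WT replicate 1 was above its group but still far below every GR LKO liver, and without it the log2 fold change was 7.17. The steroid hydroxylase *Cyp2a4* was measured at 770, 898 and 567 CPM in GR LKO against 104, 23.2 and 78.8 CPM in WT (log2 fold change 3.45, SE 0.51, adjusted p = 0.019 in edgeR). The spread in both groups was wide, without overlap. *Hamp2*, a copy of the iron hormone hepcidin, had 440, 329 and 387 CPM in GR LKO against 43.8, 10.2 and 14.5 CPM in WT (log2 fold change 4.08, SE 0.53, adjusted p = 0.013 in edgeR). Again WT replicate 1 was the highest of the WT livers, and without it the log2 fold change was 4.97. The transcription factor *Tcf24* stood at 4.82, 10.1 and 7.01 CPM in GR LKO against 0.338, 0.273 and 0.271 CPM in WT (log2 fold change 4.61, SE 0.37, adjusted p = 0.0024 in edgeR). The pheromone-binding urinary proteins *Mup15* (8.78, 3.96 and 11.3 CPM in GR LKO against 0.282, 0 and 0 CPM in WT, adjusted p = 0.012 in edgeR) and *Mup17* (6.73, 5.43 and 12.1 CPM in GR LKO against 1.02, 0.0545 and 0.976 CPM in WT, adjusted p = 0.037 in edgeR) rose from near 0. The value of *Mup15* in WT came from WT replicate 1, and without that mouse it was at 0 in the WT livers. Genes of the Mup, Cyp2b, Cyp2a and hepcidin families are so alike that their counts may be split between copies.

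*Pign*, an enzyme of GPI anchor synthesis, was at 0 in all WT livers and at 7.25, 7.75 and 10.8 CPM in GR LKO, at least 42.9-fold higher (adjusted p = 0.0024 in edgeR). *Gm14440* (ENSMUSG00000078901, chr2:175275125-175286805, plus strand) was at 0 in all GR LKO livers and at 19.5, 24.6 and 17.1 CPM in WT, at least 98.5-fold lower (adjusted p = 0.0011 in edgeR), and *Gm14288*, of the same family of near copies, had 15.3, 17.5 and 11.1 CPM in GR LKO against 0.226, 0.872 and 0.596 CPM in WT (log2 fold change 4.68, SE 0.37, adjusted p = 0.0024 in edgeR). A gene without a symbol, ENSMUSG00000037513, was at 0 in GR LKO and at 18.4, 19.5 and 19.1 CPM in WT, at least 106-fold lower (adjusted p = 0.00068 in edgeR). At other times such genes switched between 0 and several CPM within a genotype: *Pign* stood at 0, 4.75 and 5.76 CPM in WT at ZT4, and *Gm14440* at 21.2, 18.2 and 0 CPM in GR LKO at ZT12. The assignment of reads to overlapping or similar transcripts was not tested. With a single fit of all 36 libraries on caloric restriction *Pign*, *Gm14288* and ENSMUSG00000037513 did not pass. Their fitted log2 values moved little over all 13 alternatives, from 9.73 to 10.40, 4.31 to 5.13 and -11.50 to -10.93 in that order, and those of *Pign* and ENSMUSG00000037513 rest on 0 counts and are no measure of size.

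Of the genes that fell most, *Cyp17a1* (ENSMUSG00000003555, chr19:46667165-46673172, minus strand), the steroid 17-hydroxylase, stood at 1.15, 1 and 1.27 CPM in GR LKO against 28.1, 25.1 and 12.9 CPM in WT (log2 fold change -4.26, SE 0.34, adjusted p = 0.0024 in edgeR). GR LKO livers held hardly any of it. *Eif4ebp3*, a translation repressor that binds eIF4E, had 3.67, 2.06 and 4 CPM in GR LKO against 35.4, 68.5 and 39.7 CPM in WT (log2 fold change -3.88, SE 0.34, adjusted p = 0.0033 in edgeR). WT replicate 2 was the highest, and its removal left the call in place. *Dct*, known as an enzyme of melanin synthesis, had 0.859, 0.791 and 0.406 CPM in GR LKO against 9.76, 6.81 and 6.94 CPM in WT (log2 fold change -3.48, SE 0.30, adjusted p = 0.0033 in edgeR). The peroxisomal *Acnat2*, which conjugates fatty acids to amino acids, stood at 2.15, 1.58 and 2.2 CPM in GR LKO against 17.1, 24.1 and 19.7 CPM in WT (log2 fold change -3.35, SE 0.19, adjusted p = 0.00068 in edgeR). Neither gene showed overlap, which the choice of the largest rises and falls required. *Serpina3k* (ENSMUSG00000058207, chr12:104338486-104346144, plus strand), a serine protease inhibitor that hepatocytes secrete, was measured at 545, 615 and 650 CPM in GR LKO against 4000, 3180 and 4690 CPM in WT (log2 fold change -2.71, SE 0.17, adjusted p = 0.0011 in edgeR). Its GR LKO values were tight, and the Serpina3 cluster holds near copies among which reads may be split. *Slc3a1*, a subunit of the cystine transporter, had 9.07, 7.81 and 9.85 CPM in GR LKO against 40.9, 62.8 and 37.6 CPM in WT (log2 fold change -2.40, SE 0.22, adjusted p = 0.0036 in edgeR). All GR LKO livers again lay below all WT livers.

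Among the called genes without overlap the muscle and fat carbonic anhydrase *Car3* gained most in CPM, with 2670, 3090 and 2990 CPM in GR LKO against 770, 209 and 691 CPM in WT (log2 fold change 2.40, SE 0.44, adjusted p = 0.038 in edgeR). WT replicate 2 was the lowest, and without it the log2 fold change was 2.01. Next came *Inmt*, which methylates tryptamine, at 1920, 1690 and 2040 CPM in GR LKO against 1100, 653 and 874 CPM in WT (log2 fold change 1.11, SE 0.19, adjusted p = 0.031 in edgeR). The peroxisomal thiolase *Acaa1b* of fatty acid oxidation had 1450, 1660 and 1380 CPM in GR LKO against 637, 521 and 737 CPM in WT (log2 fold change 1.25, SE 0.15, adjusted p = 0.01 in edgeR). In these genes the lowest GR LKO liver exceeded the highest WT liver. Besides *Serpina3k*, the losses included *Apoa1* with 2940, 2720 and 2920 CPM in GR LKO against 4160, 3970 and 4660 CPM in WT, and the flavin monooxygenase *Fmo5* with 652, 561 and 562 CPM in GR LKO against 1180, 1560 and 998 CPM in WT (log2 fold change -1.07, SE 0.17, adjusted p = 0.026 in edgeR). GR LKO livers lay below all WT livers in both genes.

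*Car3* and the lipid droplet protein *Cidec* are also on the adipocyte marker list, where 8 genes were measured and 3 could be tested. The summed adipocyte markers were 2680, 3100 and 3010 CPM in GR LKO against 777, 216 and 697 CPM in WT, nearly all from *Car3*. The defining adipocyte genes *Plin1* and *Lep* were at 0 in all 6 livers, and *Adipoq* stood at 0, 0.0528 and 0 CPM in GR LKO against 0.0564, 0 and 0 CPM in WT. *Fabp4*, a fatty acid carrier of adipocytes and vessels, had 6.2, 5.75 and 7.65 CPM in GR LKO against 5.87, 6.65 and 5.47 CPM in WT (log2 fold change 0.13, SE 0.16, adjusted p = 0.74 in edgeR), with overlapping groups.

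Of 26 genes of cholesterol synthesis and uptake, all tested, 11 fell, 0 rose in edgeR and 15 did not pass, with a median log2 fold change of -0.66 and 23 of 26 values below 0. *Fdps* (ENSMUSG00000059743, chr3:89093588-89101959, minus strand), which makes farnesyl pyrophosphate, had 169, 168 and 163 CPM in GR LKO against 528, 379 and 488 CPM in WT (log2 fold change -1.47, SE 0.13, adjusted p = 0.0033 in edgeR). For squalene epoxidase *Sqle* the values were 75, 70.2 and 74.4 CPM in GR LKO against 191, 129 and 175 CPM in WT (log2 fold change -1.17, SE 0.14, adjusted p = 0.01 in edgeR). *Nsdhl*, a demethylation enzyme of the late pathway, had 90.1, 82 and 82.7 CPM in GR LKO against 169, 137 and 165 CPM in WT (log2 fold change -0.88, SE 0.10, adjusted p = 0.0087 in edgeR). WT replicate 2 was the lowest of the WT livers for *Fdps*, *Sqle* and *Nsdhl*, and still above all GR LKO livers.

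Further members that fell are named although chosen after their values were seen. Among them were the mevalonate enzymes *Mvd* (ratio of GR LKO to WT 0.498), *Mvk* and *Pmvk* (log2 fold change -0.89 and -0.51) and the sterol enzymes *Lss*, *Cyp51*, *Hsd17b7* and *Dhcr7* (-0.70, -0.94, -0.73 and -0.87). Close to the threshold stood *Idi1*, which isomerizes isopentenyl pyrophosphate, with 275, 279 and 233 CPM in GR LKO against 570, 360 and 485 CPM in WT (log2 fold change -0.84, SE 0.17, adjusted p = 0.052 in edgeR). *Hmgcs1*, which joins acetyl-CoA to acetoacetyl-CoA, had 263, 302 and 280 CPM in GR LKO against 571, 318 and 430 CPM in WT (log2 fold change -0.64, SE 0.20, adjusted p = 0.16 in edgeR). In both genes the groups did not overlap. Not all targets of the sterol sensor went the same way: *Insig1*, which retains the sensor in the endoplasmic reticulum, had 660, 684 and 601 CPM in GR LKO against 616, 468 and 687 CPM in WT (log2 fold change 0.14, SE 0.15, adjusted p = 0.67 in edgeR), with overlap between the genotypes. The sterol-sensing transcription factor *Srebf2* itself stood at 55.8, 48.2 and 54.2 CPM in GR LKO against 69.2, 63.9 and 65.9 CPM in WT (log2 fold change -0.33, SE 0.08, adjusted p = 0.091 in edgeR). Leaving out WT replicate 2 gave 15 members lower and 0 higher in edgeR, with *Fdft1*, *Idi1*, *Msmo1* and *Hmgcs1* added, and a median of -0.77, and with each library left out in turn between 3 and 15 were called, the fewest without GR LKO replicate 1.

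**Figure D2:**
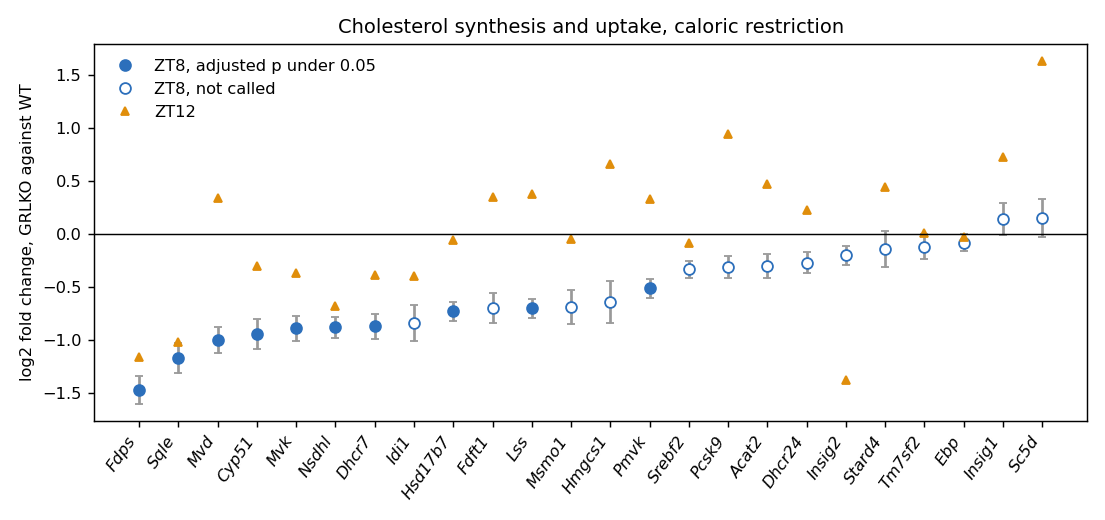
Log2 fold change of GR LKO against WT on caloric restriction for 24 genes of cholesterol synthesis and uptake, as circles with SE bars at ZT8 (filled where the adjusted p was under 0.05, n = 3 per genotype) and as triangles at ZT12. At ZT8 the values run from -1.47 for *Fdps* to 0.15 for *Sc5d*, and at ZT12 *Fdps* is at -1.16 and *Sc5d* at 1.63.

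Promoters of this group are shown because it held the most calls of any list. Windows of 300 bases around the start of transcription (250 before, 50 after, RefSeq on GRCm38.p6) were found for 18 of the 26 genes and for 22 of the 25 GR targets, and 6 motifs were searched on both strands among 32851 windows. The sterol element TCACNCCAC lay in 1.24% of all windows, among the cholesterol genes in *Hmgcs1* and among the GR targets in *Cyp2b10*. A looser form, TCACNNCAC, which includes the former, lay in 3.77% of windows and in *Dhcr7*, *Hmgcs1*, *Hsd17b7* and *Msmo1* on the cholesterol list and *Cyp2b10*, *Klf9* and *Sgk1* on the GR list. The short GR element ACANNNTGT lay in 6.85% of windows and in *Acat2* and in *Lcn2*, *Mt1* and *Sgk1*. The E-box CACGTG, bound by clock factors and others, lay in 7.15% of windows and in *Dhcr7*, *Hsd17b7*, *Insig1* and *Sc5d* and in *Dusp1*, *Fkbp5*, *Per1* and *Sgk1*. The D-box TTATGNAAT (0.825% of windows) was found in no member of either list, and the FoxO element GTAAACA (3.65%) in *Klf9*. Longer forms of the GR element were also searched and are not reported. A match describes letters and is no evidence of binding. In the promoters below, written 5′ to 3′ on the strand of the gene, capitals mark the sterol element of *Hmgcs1* (chr13:119690101-119690400, plus strand) and its looser form in *Hsd17b7* (chr1:169969156-169969455, minus strand) and *Dhcr7* (chr7:143823149-143823448, plus strand).
Hmgcs1: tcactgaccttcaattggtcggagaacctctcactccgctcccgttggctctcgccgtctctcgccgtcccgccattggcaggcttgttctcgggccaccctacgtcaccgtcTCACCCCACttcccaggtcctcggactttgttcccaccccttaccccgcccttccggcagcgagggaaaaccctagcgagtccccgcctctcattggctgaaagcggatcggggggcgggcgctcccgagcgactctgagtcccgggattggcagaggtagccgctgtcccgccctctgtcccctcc
Hsd17b7: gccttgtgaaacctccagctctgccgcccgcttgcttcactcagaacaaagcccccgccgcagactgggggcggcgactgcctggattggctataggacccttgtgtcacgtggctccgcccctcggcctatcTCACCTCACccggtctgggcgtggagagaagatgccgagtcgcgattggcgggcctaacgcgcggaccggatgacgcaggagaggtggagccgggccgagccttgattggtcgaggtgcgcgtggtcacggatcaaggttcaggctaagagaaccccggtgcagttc
Dhcr7: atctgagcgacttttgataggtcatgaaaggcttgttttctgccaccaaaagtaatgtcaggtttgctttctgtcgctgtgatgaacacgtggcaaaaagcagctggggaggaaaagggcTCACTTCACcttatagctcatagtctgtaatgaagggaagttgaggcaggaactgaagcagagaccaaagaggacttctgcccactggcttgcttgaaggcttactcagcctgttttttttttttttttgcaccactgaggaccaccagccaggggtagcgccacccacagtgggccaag

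Of 42 tested PPARα targets and fat oxidation genes 8 rose and 1 fell, with a median log2 fold change of 0.37 and 38 values above 0. The lipid droplet coat protein *Plin2* had 311, 301 and 325 CPM in GR LKO against 191, 148 and 152 CPM in WT (log2 fold change 0.94, SE 0.11, adjusted p = 0.01 in edgeR). *Cyp4a32*, a fatty acid omega-hydroxylase with close copies, stood at 31.9, 27.7 and 36.2 CPM in GR LKO against 16.7, 14.7 and 15.2 CPM in WT (log2 fold change 1.05, SE 0.12, adjusted p = 0.009 in edgeR). Values were narrow in both groups. *Cidec*, which enlarges lipid droplets, had 3.05, 4.48 and 3.24 CPM in GR LKO against 0.79, 0.218 and 0.217 CPM in WT (log2 fold change 3.13, SE 0.49, adjusted p = 0.023 in edgeR). It was low in both genotypes, the groups did not overlap, and the log2 fold change was 4.01 without WT replicate 1. The others that rose, chosen after their values were seen, were the peroxisomal enzymes *Ehhadh* and *Acaa1a* (log2 fold change 0.66 and 0.41) and the acyl-CoA thioesterases *Acot2* and *Acot3* (1.00 and 1.42), besides *Acaa1b*. Neither thioesterase passed without WT replicate 2, at log2 fold changes of 0.99 and 1.29. The member that fell, likewise, was *Plin5*, which ties lipid droplets to mitochondria, with 9.73, 13.9 and 12.7 CPM in GR LKO against 22.2, 42.3 and 28.3 CPM in WT (log2 fold change -1.35, SE 0.25, adjusted p = 0.04 in edgeR). The receptor *Ppara* itself had 192, 215 and 210 CPM in GR LKO against 170, 108 and 138 CPM in WT (log2 fold change 0.58, SE 0.16, adjusted p = 0.12 in edgeR). *Cpt1a*, the entry gate of mitochondrial oxidation, had 446, 500 and 468 CPM in GR LKO against 458, 379 and 411 CPM in WT (log2 fold change 0.19, SE 0.10, adjusted p = 0.39 in edgeR). *Ppara* did not overlap between genotypes and *Cpt1a* did. When WT replicate 2 was left out the median was 0.28, with 8 members higher and 1 lower, and with the libraries left out in turn between 0 and 13 were called, none in edgeR without GR LKO replicate 1, where 1570 genes had an unadjusted p under 0.05.

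The liver of rodents differs between the sexes through the pattern of growth hormone release, which STAT5 reads in hepatocytes. Of 27 tested female-biased genes 6 rose and 2 fell in the GR LKO livers of these males, with a median log2 fold change of 0.78. Besides *Hao2*, *Cyp2b10*, *Cyp2b13* and *Cyp2a4*, the peroxisomal transporter *Abcd2* had 149, 169 and 119 CPM in GR LKO against 69, 41.6 and 71.6 CPM in WT (log2 fold change 1.27, SE 0.22, adjusted p = 0.031 in edgeR), and the thioesterase *Acot3* 339, 261 and 236 CPM and 150, 85.8 and 78.7 CPM (log2 fold change 1.42, SE 0.26, adjusted p = 0.04 in edgeR), both named after their values were seen. As noted, *Acot3* did not pass when WT replicate 2 was left out. Of those that fell, *Cyp17a1* was given above and also passed without WT replicate 2. *Cyp2b9*, another female-biased P450, stood at 586, 658 and 636 CPM in GR LKO against 516, 229 and 198 CPM in WT (log2 fold change 1.00, SE 0.34, adjusted p = 0.19 in edgeR). WT replicate 1 was near the GR LKO livers and the groups did not overlap. Without WT replicate 2 the list had 8 members higher and 1 lower and a median of 0.86, and between 2 and 9 members were called over all leave-outs, the fewest without GR LKO replicate 1.

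Of 23 tested male-biased genes 3 rose and 0 fell in edgeR, with a median of 0.37, also with *Elovl3* at its bound. The elongase *Elovl3* was at 0 in all WT livers and at 1, 2.9 and 3.48 CPM in GR LKO, at least 5.92-fold higher (adjusted p = 0.028 in edgeR). *Keg1*, a glycine acyltransferase-like gene, had 102, 179 and 112 CPM in GR LKO against 54.5, 36.1 and 62.4 CPM in WT (log2 fold change 1.37, SE 0.27, adjusted p = 0.047 in edgeR), and *Mup15* was given above. This list turned on WT replicate 2. Without that mouse its median was -0.17, *Elovl3* and *Mup15* were the members called higher, *Keg1* did not pass (log2 fold change 1.17), and *Mup7*, *Serpina1e* and *Cyp7b1* were called lower (log2 fold change -2.78, -1.89 and -0.67). Over all leave-outs between 1 and 5 members were called, the fewest without GR LKO replicate 1.

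In the growth hormone and STAT5 axis 1 of 16 genes rose and 2 fell (median -0.06, and 0.04 without WT replicate 2). The EGF receptor *Egfr*, which growth hormone induces in liver, had 52.5, 72 and 59.6 CPM in GR LKO against 177, 241 and 156 CPM in WT (log2 fold change -1.64, SE 0.19, adjusted p = 0.0092 in edgeR). GR LKO livers all lay below the lowest WT liver. The prolactin receptor *Prlr* stood at 320, 342 and 296 CPM in GR LKO against 236, 207 and 191 CPM in WT (log2 fold change 0.60, SE 0.10, adjusted p = 0.032 in edgeR), and the other member that fell was *Serpina3k*. *Igf1*, the main growth factor made in response to growth hormone, had 524, 560 and 486 CPM in GR LKO against 511, 527 and 493 CPM in WT (log2 fold change 0.04, SE 0.09, adjusted p = 0.85 in edgeR). The STAT5 target *Socs2*, a feedback inhibitor, had 18.5, 28.7 and 13 CPM in GR LKO against 17.1, 55.5 and 51.2 CPM in WT (log2 fold change -1.03, SE 0.45, adjusted p = 0.3 in edgeR). Both overlapped. *Prlr* did not pass without WT replicate 2, at a log2 fold change of 0.59, and between 1 and 3 members were called over the leave-outs.

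The counts of the next lists stand beside 2.55% of all genes called. In gluconeogenesis 2 of 16 genes fell and 0 rose in edgeR (median 0.01, and -0.05 without WT replicate 2). There 3 members were called without WT replicate 2 and 1 without GR LKO replicate 1, 2 or 3. *Pfkfb3*, which makes the glycolytic activator fructose-2,6-bisphosphate, had 6.63, 5.43 and 8.98 CPM in GR LKO against 18, 22.7 and 24.8 CPM in WT (log2 fold change -1.63, SE 0.20, adjusted p = 0.01 in edgeR). The glucose-6-phosphate transporter *Slc37a4* stood at 180, 135 and 149 CPM in GR LKO against 294, 277 and 244 CPM in WT (log2 fold change -0.81, SE 0.13, adjusted p = 0.023 in edgeR). Neither overlapped. *G6pc*, which frees glucose in the last step, had 125, 27.5 and 34.4 CPM in GR LKO against 26.4, 53 and 16.7 CPM in WT (log2 fold change 0.96, SE 0.64, adjusted p = 0.49 in edgeR), a wide spread in both groups. Its higher mean in GR LKO came from replicate 1, as the other GR LKO livers lay within the WT range. Without WT replicate 2 its log2 fold change was 1.54. In amino acid catabolism 1 of 35 genes fell (median -0.04), the proline oxidase *Prodh*, with 183, 156 and 191 CPM in GR LKO against 306, 306 and 256 CPM in WT (log2 fold change -0.71, SE 0.11, adjusted p = 0.025 in edgeR). In the urea cycle 1 of 8 fell (median -0.28), argininosuccinate lyase *Asl*, with 444, 390 and 410 CPM in GR LKO against 675, 653 and 587 CPM in WT (log2 fold change -0.62, SE 0.10, adjusted p = 0.023 in edgeR). The cycle's entry enzyme *Cps1* had 4600, 4400 and 4980 CPM in GR LKO against 6710, 6080 and 5950 CPM in WT (log2 fold change -0.42, SE 0.12, adjusted p = 0.13 in edgeR). All GR LKO livers lay below all WT livers for these 3 genes. *Prodh* and *Asl* each lost their call without GR LKO replicate 1, 2 or 3 or WT replicate 1, with log2 fold changes between -0.79 and -0.63 for *Prodh* and -0.68 and -0.57 for *Asl* in any processing.

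The clock list held 23 genes, 21 of them tested, with 1 lower, 0 higher in edgeR and a median of 0.05. Of all genes 2.55% were called. The repressor *Ciart* had 32.8, 26.5 and 33.4 CPM in GR LKO against 51.7, 46.9 and 45.2 CPM in WT (log2 fold change -0.63, SE 0.11, adjusted p = 0.033 in edgeR). The groups did not overlap, but the call was lost with any library left out, at log2 fold changes of -0.69 to -0.53. *Arntl* and *Npas2*, the activators that are low at this time of day, were too low to test, at 0, 0.528 and 0 and 0.286, 0.158 and 0.116 CPM in GR LKO against 0.226, 0.709 and 0 and 0.113, 0.109 and 0.271 CPM in WT. *Clock*, the partner of *Arntl*, had a log2 fold change of 0.05, the repressors *Per2*, *Per3*, *Cry1* and *Cry2* 0.16, 0.09, -0.52 and 0.01, and the nuclear receptors *Nr1d1*, *Nr1d2* and *Rora* 0.32, -0.01 and -0.04. Of the output factors *Dbp*, *Tef*, *Hlf* and *Nfil3* the values were 0.29, -0.07, -0.02 and 0.56, of *Bhlhe40* and *Bhlhe41* 0.27 and 0.52, and of the kinases *Csnk1d* and *Csnk1e* and the ubiquitin ligase subunit *Fbxl21* -0.20, 0.17 and 0.41. The libraries of the genotypes overlapped for most of them, for example *Nr1d1* with 84.1, 83.5 and 116 CPM in GR LKO against 80.4, 53 and 94.8 CPM in WT and *Per2* with 76.6, 59.6 and 73.5 CPM in GR LKO against 71.6, 69.9 and 46.6 CPM in WT. The list also holds *Per1*, given above among the GR targets, which did not overlap (log2 fold change -0.73). Besides *Per1*, *Csnk1d* and *Fbxl21*, *Nfil3* was apart, with 6.82, 6.54 and 4.64 CPM in GR LKO against 3.83, 4.47 and 3.96 CPM in WT (log2 fold change 0.56, SE 0.19, adjusted p = 0.19 in edgeR).

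In lipogenesis and glycolysis 3 of 26 genes fell and 1 rose (median -0.15, and -0.27 without WT replicate 2). Next to *Lpin1*, the mitochondrial carboxylase *Acacb*, whose product blocks fatty acid import, had 63.7, 50.2 and 49.7 CPM in GR LKO against 95.6, 85.2 and 84.1 CPM in WT (log2 fold change -0.69, SE 0.11, adjusted p = 0.028 in edgeR). *Pfkfb2*, a sister enzyme of *Pfkfb3*, stood at 10.3, 10.4 and 11.4 CPM in GR LKO against 15.3, 18.5 and 15.9 CPM in WT (log2 fold change -0.63, SE 0.11, adjusted p = 0.028 in edgeR). The elongase *Elovl5* of polyunsaturated fatty acids had 396, 490 and 407 CPM in GR LKO against 288, 274 and 242 CPM in WT (log2 fold change 0.69, SE 0.12, adjusted p = 0.028 in edgeR). These 3 genes did not overlap. Fatty acid synthase *Fasn* had 365, 123 and 170 CPM in GR LKO against 375, 254 and 234 CPM in WT (log2 fold change -0.39, SE 0.39, adjusted p = 0.66 in edgeR), with GR LKO replicate 1 apart from its group. Between 0 and 4 members of the list were called over the leave-outs, and 0 in edgeR without GR LKO replicate 3, where 1479 genes had an unadjusted p under 0.05.

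In bile acid metabolism 1 of 26 genes fell and 0 rose in edgeR (median -0.07), beside 2.55% of all genes called. Sterol 27-hydroxylase *Cyp27a1* had 384, 393 and 365 CPM in GR LKO against 543, 543 and 678 CPM in WT (log2 fold change -0.62, SE 0.11, adjusted p = 0.034 in edgeR). *Cyp7a1*, the rate-limiting enzyme of bile acid synthesis, stood at 102, 198 and 99.1 CPM in GR LKO against 211, 173 and 282 CPM in WT (log2 fold change -0.73, SE 0.30, adjusted p = 0.26 in edgeR). *Cyp8b1*, which makes cholic acid, had 129, 188 and 164 CPM in GR LKO against 82.2, 23.7 and 82.1 CPM in WT (log2 fold change 1.36, SE 0.42, adjusted p = 0.16 in edgeR). *Cyp7a1* overlapped and *Cyp8b1* did not, with WT replicate 2 lowest. In the fit without WT replicate 2, 2 members were called higher (*Cyp8b1* and the exporter *Abcc3*) and 3 lower (*Cyp27a1*, *Cyp7b1* and the bile salt export pump *Abcb11*), chosen after their values were seen, and the median was -0.17. Without GR LKO replicate 1 or 3 or WT replicate 3 there were 0 calls on the list in edgeR, with 1570, 1479 and 2055 of all genes at an unadjusted p under 0.05. In xenobiotic metabolism 2 of 36 genes rose and 1 fell (median 0.12, and -0.07 without WT replicate 2, where 3 rose and 1 fell). Without GR LKO replicate 1, 2 or 3 there was 1 call, and between 1 and 4 over all leave-outs. The glutathione transferase *Gsta1* had 105, 78.9 and 87.9 CPM in GR LKO against 15, 6 and 14.5 CPM in WT (log2 fold change 2.94, SE 0.32, adjusted p = 0.0076 in edgeR). The sulfotransferase *Sult1d1* had 113, 125 and 113 CPM in GR LKO against 184, 205 and 159 CPM in WT (log2 fold change -0.64, SE 0.11, adjusted p = 0.029 in edgeR). Both were free of overlap. The main drug-metabolizing *Cyp3a11* had 5770, 6030 and 6980 CPM in GR LKO against 3640, 460 and 6190 CPM in WT (log2 fold change 0.88, SE 0.73, adjusted p = 0.59 in edgeR), with WT replicate 2 far below all others and a log2 fold change of 0.36 without it.

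The acute phase and complement list followed WT replicate 2 in part. Of 45 tested genes 4 fell and 1 rose, *Hamp2*, and the median was -0.73 with all WT livers and -0.21 without WT replicate 2. The chain of the interleukin 6 receptor *Il6ra* had 10.5, 10.4 and 11.3 CPM in GR LKO against 25.4, 29.1 and 27.7 CPM in WT (log2 fold change -1.35, SE 0.09, adjusted p = 0.0011 in edgeR). *Nnmt*, which methylates nicotinamide, stood at 19.8, 18.1 and 15.9 CPM in GR LKO against 70.9, 85.4 and 54.9 CPM in WT (log2 fold change -1.97, SE 0.17, adjusted p = 0.0033 in edgeR). For *Cebpb*, a transcription factor of the acute phase response, the values were 10.2, 11.3 and 8.86 CPM in GR LKO against 16.3, 17.2 and 17.7 CPM in WT (log2 fold change -0.75, SE 0.11, adjusted p = 0.017 in edgeR). These 3 genes did not rest on WT replicate 2, with log2 fold changes of -1.30, -1.80 and -0.74 without it. *Cebpb*, though, did not pass without GR LKO replicate 1 or 3 or WT replicate 3, nor in a single fit of all 36 libraries. The interleukin 1 receptor *Il1r1*, named after its values were seen, had 17.7, 15.2 and 19.8 CPM in GR LKO against 49.2, 144 and 59.4 CPM in WT (log2 fold change -2.26, SE 0.40, adjusted p = 0.035 in edgeR), and without WT replicate 2 its log2 fold change was -1.62.

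*Saa1* stood at 7.54, 6.8 and 16.4 CPM in GR LKO against 4.96, 244 and 9.7 CPM in WT (log2 fold change -3.08, SE 1.37, adjusted p = 0.31 in edgeR). Haptoglobin *Hp*, which binds free hemoglobin, stood at 1000, 1040 and 882 CPM in GR LKO against 1290, 5980 and 1470 CPM in WT (log2 fold change -1.58, SE 0.57, adjusted p = 0.21 in edgeR). The heme carrier *Hpx* had 2690, 2570 and 2420 CPM in GR LKO against 2480, 9890 and 2680 CPM in WT (log2 fold change -0.97, SE 0.51, adjusted p = 0.39 in edgeR). None of these passed, and in each the highest value belonged to WT replicate 2. Without that mouse the log2 fold change was 0.48 for *Saa1*, -0.49 for *Hp* and 0.00 for *Hpx*. For the plasma protein *Orm2* the direction turned as for *Saa1*: the livers had 113, 132 and 127 CPM in GR LKO against 65.2, 878 and 78.4 CPM in WT (log2 fold change -1.45, SE 0.93, adjusted p = 0.47 in edgeR), and without WT replicate 2 the log2 fold change was 0.80 (SE 0.11) and passed the test. Without that mouse 6 members of the list were lower and 3 higher, among them *Hamp2* and *Orm2*, the latter chosen after its values were seen, and between 2 and 9 were called over the leave-outs, the fewest without GR LKO replicate 1. The Kupffer marker *Marco*, a scavenger receptor, had 4.34, 2.8 and 3.13 CPM in GR LKO against 4.51, 40.1 and 10.4 CPM in WT (log2 fold change -2.41, SE 0.75, adjusted p = 0.16 in edgeR). Its log2 fold change was -1.11 without WT replicate 2, and 0 of 8 Kupffer and myeloid markers were called in edgeR (median -0.42, and -0.12 without WT replicate 2). The part of these cells in the acute phase values was not tested.

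The remaining lists held few calls, beside 2.55% of all genes called in edgeR. In FoxO and insulin signaling 2 of 38 genes fell and 0 rose in edgeR (median -0.04, and -0.01 without WT replicate 2), *Igfbp1* and the cell death activator *Bcl2l11* with 9.5, 8.49 and 8.05 CPM in GR LKO against 13.5, 18.8 and 13.6 CPM in WT (log2 fold change -0.81, SE 0.16, adjusted p = 0.046 in edgeR). *Foxo1* itself had 37.9, 43.5 and 37.7 CPM in GR LKO against 47.5, 42.7 and 49.1 CPM in WT (log2 fold change -0.22, SE 0.09, adjusted p = 0.27 in edgeR). On this list 3 members were called without WT replicate 2 and 0 in edgeR without GR LKO replicate 1, 2 or 3 or WT replicate 3. In autophagy and lysosome 1 of 37 fell (median -0.08), *Map1lc3b*, which coats autophagosomes, with 109, 110 and 114 CPM in GR LKO against 140, 163 and 158 CPM in WT (log2 fold change -0.46, SE 0.08, adjusted p = 0.032 in edgeR). It did not pass without WT replicate 2, at a log2 fold change of -0.42, and the list had between 0 and 1 calls over the leave-outs. In amino acid stress and serine synthesis 1 of 20 rose and 1 fell (median -0.03, and 0.01 without WT replicate 2, with 1 to 4 calls over the leave-outs), the VLDL receptor *Vldlr* with 41.2, 58.6 and 52 CPM in GR LKO against 20.9, 11.2 and 12.8 CPM in WT (log2 fold change 1.77, SE 0.24, adjusted p = 0.015 in edgeR), and *Eif4ebp3*. Among 18 heat shock genes 1 fell (median 0.04, also at its bound, and -0.01 without WT replicate 2, with 0 to 1 calls over the leave-outs), the chaperone *Hsph1*, at 0 in all GR LKO livers and at 5.92, 1.8 and 4.01 CPM in WT, at least 10.3-fold lower (adjusted p = 0.018 in edgeR), which is uncertain as for the other genes at 0. In growth arrest and p53 targets 0 of 21 and in immediate early genes 0 of 18 were called by edgeR (2092 of all genes at an unadjusted p under 0.05, 698 called by DESeq2). Beside 2.55% of all genes called in edgeR, these counts of 0 say little about either list. Their medians were -0.01 and -0.16, and 0.10 and -0.07 without WT replicate 2.

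**Figure D3:**
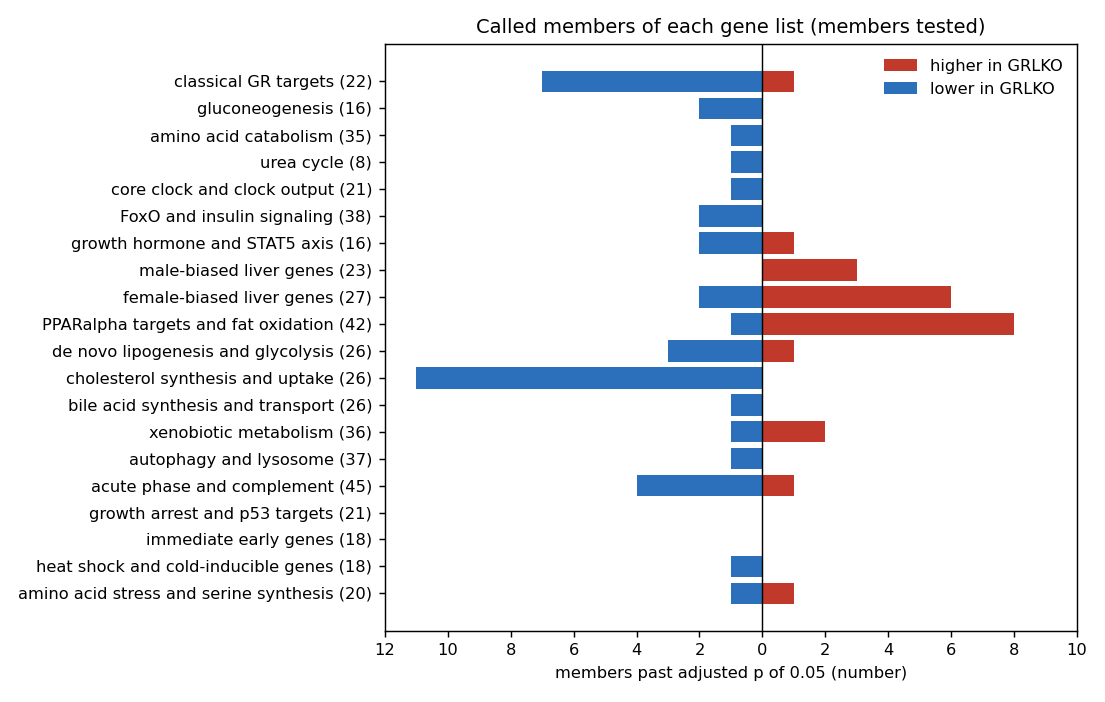
Number of members of each of 20 gene lists called higher (red, to the right) or lower (blue, to the left) in GR LKO than in WT livers on caloric restriction at ZT8, with the number tested in brackets. The longest bars are the 11 lower members of cholesterol synthesis and uptake and the 8 higher members of the PPARα list.

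Markers of other liver cells gave the following sums. Endothelial markers stood at 192, 195 and 206 CPM in GR LKO against 153, 166 and 158 CPM in WT, led by *Kdr*, with 0 of 6 called in edgeR and a median of 0.28. Stellate cell markers had 229, 201 and 223 CPM in GR LKO against 183, 237 and 214 CPM in WT, led by *Dcn*, again with 0 of 6 called. Lymphocyte markers were low at 8.4, 6.65 and 6.55 CPM in GR LKO against 4.34, 8.78 and 8.02 CPM in WT, and cholangiocyte markers had 64.8, 55.8 and 74 CPM in GR LKO against 45.3, 89.9 and 44.2 CPM in WT, with the defining *Epcam* at 0. Neutrophil markers stayed at or below 3.98 CPM, in WT replicate 2, and exocrine pancreas markers at or below 0.79 CPM, with 7 of 10 at 0. Erythrocyte markers had 476, 395 and 427 CPM in GR LKO against 471, 714 and 295 CPM in WT, and the heme synthesis enzyme *Alas2* of red cells rose, from 23.3, 22.8 and 22.3 CPM in WT to 64.8, 53.6 and 69.8 CPM in GR LKO (log2 fold change 1.47, SE 0.11, adjusted p = 0.0017 in edgeR). The globin *Hbb-bs* had 193, 176 and 170 CPM in GR LKO against 217, 332 and 124 CPM in WT (log2 fold change -0.32, SE 0.31, adjusted p = 0.65 in edgeR), so that the globin did not move with *Alas2*.

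Whether the effect at ZT8 differed from that at ZT12, the time of the meal and of high hormone, was asked with an interaction of genotype and time. At ZT12 1795 of 11759 genes (15.3%) were called. At that time 4 of 8 Kupffer and myeloid markers were called higher (median 1.05) and 4 of 7 hepatocyte markers lower (median -0.44), and the part of this in other genes was not tested. The effects at ZT8 and ZT12 differed for 104 of 12393 genes (0.839%), 49 with a more positive and 55 with a more negative effect at ZT8. Of the 308 genes called at ZT8, 218 were also called at ZT12, which is 70.8% of the former and 12.1% of the latter, from separate livers. Of these 216 had the same sign. The others, chosen after their values were seen, were *Lss* and the apolipoprotein L gene *Apol9a*, both lower in GR LKO at ZT8 and higher at ZT12. *Acox2*, a peroxisomal oxidase of bile acid precursors, stood at 121, 112 and 130 CPM in GR LKO against 119, 139 and 130 CPM in WT at ZT8, and at 46.5, 54.7 and 49.5 CPM and 154, 139 and 142 CPM at ZT12 (difference 1.43 on the log2 scale, SE 0.12, adjusted p = 0.0019 in edgeR). The genotypes overlapped at ZT8 and were far apart at ZT12. *Cdkn1a*, near 1 CPM in both genotypes at ZT8, stood at 1.84, 2.09 and 2.26 CPM in GR LKO against 38.4, 20 and 27.6 CPM in WT at ZT12 (difference 3.84 on the log2 scale, SE 0.37, adjusted p = 0.0024 in edgeR). The mitochondrial chaperone *Clpx* had 54.5, 57 and 57.8 CPM in GR LKO against 53, 51.6 and 54.6 CPM in WT at ZT8 and 60.3, 57.3 and 62.5 CPM and 147, 114 and 133 CPM at ZT12 (difference 1.22 on the log2 scale, SE 0.12, adjusted p = 0.0024 in edgeR). In these genes WT livers were higher than GR LKO livers at ZT12 without overlap. The splicing factor *Bud13* followed with 5.06, 5.22 and 5.91 CPM in GR LKO against 4.4, 5.01 and 5.15 CPM in WT at ZT8 and 15.5, 18.7 and 17.7 CPM and 58.9, 77.5 and 53 CPM at ZT12 (difference 2.02 on the log2 scale, SE 0.21, adjusted p = 0.0024 in edgeR). *Tango2*, linked to a metabolic crisis syndrome, was lower in GR LKO at both times, with 19.8, 17.7 and 20.4 CPM in GR LKO against 38.1, 35.9 and 36 CPM in WT at ZT8 and 17.7, 16.6 and 16.9 CPM and 69.1, 69.6 and 84.6 CPM at ZT12 (difference 1.20 on the log2 scale, SE 0.13, adjusted p = 0.0025 in edgeR).

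At ZT12 the cholesterol list had 6 members higher and 4 lower (*Fdps*, *Sqle*, *Nsdhl* and *Insig2*) with a median of -0.01, and in the interaction 5 of 26 members had a more negative effect at ZT8 (among them, chosen after their values were seen, *Sc5d*, *Lss*, *Fdft1* and *Hsd17b7*), 0 a more positive one in edgeR (1821 of all genes at an unadjusted p under 0.05, 462 called in DESeq2). *Lss*, which closes the sterol rings, had 130, 130 and 114 CPM in GR LKO against 223, 189 and 198 CPM in WT at ZT8 and 76.7, 82.2 and 79.4 CPM and 66.2, 52.7 and 63.3 CPM at ZT12 (difference -1.09 on the log2 scale, SE 0.14, adjusted p = 0.0083 in edgeR). It was lower in GR LKO at ZT8 and higher at ZT12. *Fdps* and *Sqle* were lower in GR LKO at both times, at ZT12 with log2 fold changes of -1.16 and -1.02, and their interaction did not pass (adjusted p = 0.61 and 0.83 in edgeR).

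GR targets were called lower in 20 of 24 tested at ZT12 (median -1.82), and for 3 of 24 the effect was more positive at ZT8. *Tsc22d3* had 59, 74.4 and 66 CPM in GR LKO against 212, 246 and 261 CPM in WT at ZT12 (difference 0.89 on the log2 scale, SE 0.15, adjusted p = 0.028 in edgeR), and besides *Cdkn1a* the other was *Klf9* (difference 0.81 on the log2 scale, SE 0.16, adjusted p = 0.042 in edgeR). Without WT replicate 2 of ZT8 *Klf9* did not pass, at a nearly unchanged difference of 0.80. In that fit *Mt1*, *Ddit4* and *Angptl4* passed, with differences of 2.86, 2.97 and 0.94 against 1.35, 2.57 and 0.84 with all libraries, so that 5 members had a more positive effect at ZT8. *Fkbp5* had 57.3, 49.2 and 40.4 CPM in GR LKO against 334, 321 and 390 CPM in WT at ZT12, where the interaction did not pass (difference 0.63 on the log2 scale, SE 0.33, adjusted p = 0.41 in edgeR). GR LKO livers lay below WT livers without overlap at both times. The number of differences was 42, 39 and 34 without GR LKO replicates 1, 2 and 3 of ZT8, 58 and 69 without WT replicates 1 and 3 of ZT8, 52 and 55 without GR LKO replicates 1 and 3 of ZT12 and 64 and 48 without WT replicates 2 and 3 of ZT12.

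**Figure D4:**
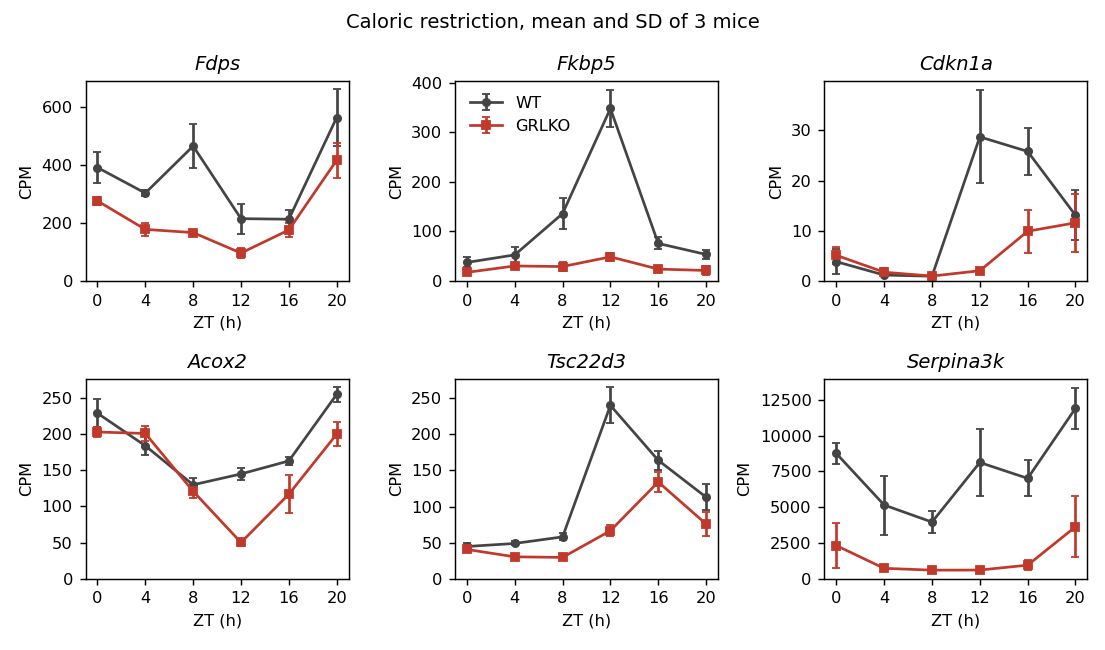
Mean CPM of 6 genes in WT (grey circles) and GR LKO livers (red squares) on caloric restriction at 6 times of day (ZT in h, n = 3 mice per point, bars are SD). *Fdps* in WT is at 465 CPM at ZT8 and 215 CPM at ZT12, while *Fkbp5* in WT goes from 136 to 348 CPM and *Serpina3k* stays lower in GR LKO than in WT at ZT4, ZT8 and ZT12.

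Against ZT4 no difference in the genotype effect passed. Here WT replicate 3 of ZT4 stood apart, with a chi-square per degree of freedom of 48.57 and 36.91 from WT replicates 1 and 2, against 17.09 between those. Its *Car3* was at 1580 CPM beside 554 and 632 CPM in them, and leaving it out did not change the number of differences. At ZT4 83 of 12025 genes (0.690%) were called, and 39 of the 308 genes of ZT8 were among them, 12.7% of the former list and 47% of the ZT4 list. The interaction called 0 of 12480 genes (0%) in edgeR, with 502 genes at an unadjusted p under 0.05, and 25 in DESeq2. Without GR LKO replicate 2 or WT replicate 2 of ZT8 or GR LKO replicate 3 of ZT4 it called 1 gene. Among the genes with the smallest p and at least 5 CPM were *Arhgef37*, *Hist1h2bc*, *Fbf1* and *Dnajb9*. *Arhgef37*, a guanine nucleotide exchange factor, had 8.45, 8.76 and 9.56 CPM in GR LKO against 21, 25.9 and 20.8 CPM in WT at ZT8 and 16.5, 18.9 and 16.8 CPM and 20, 22.5 and 21 CPM at ZT4 (difference -1.05 on the log2 scale, SE 0.15, adjusted p = 0.14 in edgeR). The gap was wide at ZT8 and narrow at ZT4. *Fbf1*, a protein of the base of cilia, had 31.4, 30.3 and 20.7 CPM in GR LKO against 8.12, 5.56 and 8.08 CPM in WT at ZT8 and 7.33, 6.28 and 5.12 CPM and 7.91, 4.87 and 7.05 CPM at ZT4 (difference 2.01 on the log2 scale, SE 0.32, adjusted p = 0.2 in edgeR). The histone gene *Hist1h2bc* had a difference of 0.64 and the endoplasmic reticulum chaperone *Dnajb9* of 0.59 (adjusted p = 0.2 and 0.6 in edgeR). *Fkbp5* had 31.7, 26.4 and 33.3 CPM in GR LKO against 66.8, 56.8 and 35 CPM in WT at ZT4 (difference -1.41 on the log2 scale, SE 0.39, adjusted p = 1 in edgeR).

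The same genotypes at the same time of day on control diet allow the diet to be asked about. Diet and set of libraries coincide, so only the difference of the genotype effects was tested, in which what both genotypes of a diet share drops out. On control diet 166 of 11582 genes (1.43%) were called, and 62 of them are among the 308 on caloric restriction, 37.3% and 20.1% of the lists. The genotype effects differed between the diets for 10 of 12345 genes (0.0810%), 3 more positive and 7 more negative on caloric restriction. *Serpina3k* stood at 4950, 5540, 5730 and 5340 CPM in GR LKO against 9020, 8830, 9000 and 9370 CPM in WT on control diet, where it also fell (log2 fold change -0.75, SE 0.05, adjusted p = 0.00051 in edgeR). The fall was larger on caloric restriction (difference -1.96 on the log2 scale, SE 0.16, adjusted p = 0.00013 in edgeR). *Cyp17a1* had 1.13, 1.35, 1.41 and 1.41 CPM in GR LKO against 2.1, 1.85, 1.95 and 1.39 CPM in WT on control diet, low in both genotypes (difference -3.80 on the log2 scale, SE 0.37, adjusted p = 0.00073 in edgeR). *St3gal5*, the GM3 ganglioside synthase, had 64.9, 58.3 and 45 CPM in GR LKO against 144, 171 and 163 CPM in WT on caloric restriction and 57.5, 48.1, 45.9 and 44.5 CPM and 56.8, 60.2, 52.6 and 54.7 CPM on control diet (difference -1.30 on the log2 scale, SE 0.17, adjusted p = 0.0079 in edgeR). Groups were apart on caloric restriction and overlapped on control diet. The whey acidic domain protein *Wfdc21* had 52.7, 75.9 and 46.8 CPM in GR LKO against 268, 373 and 207 CPM in WT on caloric restriction and 188, 227, 252 and 181 CPM and 252, 238, 246 and 241 CPM on control diet (difference -2.06 on the log2 scale, SE 0.27, adjusted p = 0.0092 in edgeR). *Elovl3*, at 0 in WT on caloric restriction, had 30, 37.2, 25.2 and 29.1 CPM in GR LKO against 43.7, 39.3, 42.2 and 42.6 CPM in WT on control diet (adjusted p of the difference 0.0079 in edgeR). The other differences were *Acnat2* (-1.86), *Fbf1* (1.66) and, chosen after their values were seen, *Megf9* (-0.92), *Alas2* (1.04) and *Fbxo31* (-1.07). Without WT replicate 2 on caloric restriction *Acnat2*, *Alas2* and *Fbxo31* did not pass, at nearly unchanged differences of -1.71, 1.04 and -0.97. Nor did *Fbf1*, where the ratio of the genotype effects went from 3.16 to 2.84. The same fit called 11 genes in all, among them 5 that had not passed before, *Car3* (1.47), *Il1r1* (-0.95), *Cdip1* (-0.63), *Gm10698* and *Fam19a5*, likewise named after their values were seen.

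Among the GR targets 2 of 23 fell (*Pck1* and *Tat*) and 1 rose (*Cyp2b10*) on control diet (median -0.42). Between the diets 0 of 23 differed in edgeR (1043 of all genes at an unadjusted p under 0.05, 127 called in DESeq2). As only 0.0810% of all genes differed in edgeR, this 0 says little about GR targets. *Fkbp5* had 13.5, 9.53, 11.9 and 14.1 CPM in GR LKO against 20.6, 9.67, 20.9 and 14.7 CPM in WT on control diet, with overlap, and its difference between the diets did not pass (difference -1.78 on the log2 scale, SE 0.38, adjusted p = 0.13 in edgeR). In the cholesterol list 6 of 26 fell on control diet (median -0.23), and 0 of 26 differed between the diets in edgeR, again beside 0.0810% of all genes. In the PPARα list 12 of 42 rose on control diet (median 0.26), and of 18 female-biased genes that could be tested 7 rose (median 1.22). The number of differences between the diets was 4 without GR LKO replicate 1 and 35 without WT replicate 1 on caloric restriction, and 6 without GR LKO replicate 1 or 3 on control diet.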

How the data were processed

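Liver polyA RNA was extracted with QIAZOL and made into TruSeq libraries. Per the labels the authors used FastQC, MultiQC, Salmon and DESeq2 with mm10, and their deposited tables hold estimated counts for each gene without normalization. Of the files 2 were used and 3 not. The transcript annotation is not given in the sources used here. Of 27654 gene IDs 27244 were matched to a symbol.

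Estimated counts were rounded and tested in R 4.3.3 with edgeR 4.0.16 (quasi-likelihood, TMM, filterByExpr at a minimum of 10, Benjamini-Hochberg adjusted p under 0.05), each comparison on its own libraries. Interactions used 1 coefficient per group. CPM were scaled over the libraries of a diet. DESeq2 1.42.0 was an alternative, and edgeR ran with limma 3.58.1. Gene lists were written from general knowledge. The tests were checked for recovery of set changes on simulated data with the same spread for all genes and no library apart. That check does not cover a mouse such as WT replicate 2. Chromosomal positions are from GENCODE on mm10.

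The members and lists were chosen with earlier results of these data known. Named genes are *Nr3c1*, the 10 largest rises and falls and the 5 largest gains and losses in CPM among called genes of at least 5 CPM without overlap, up to 4 called members of each list by p, all GR target and clock genes, the 5 smallest p of each interaction, and markers. Other genes in the text were chosen after their values were seen. Some genes that meet the rule are not reported here.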

Additional observations from a re-analysis of the deposited data

Results flagged for a closer look

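The genotype effect of 17 genes named in the text differed between ZT8 and ZT12 by the interaction test of edgeR (adjusted p under 0.05). A positive value is a more positive effect of GR loss at ZT8, on the log2 scale. It was 1.43 for *Acox2*, 3.84 for *Cdkn1a*, 1.22 for *Clpx*, 2.02 for *Bud13* and 1.20 for *Tango2*. The same test gave 0.89 for *Tsc22d3* and 0.81 for *Klf9* among GR targets, 1.32 for *Ciart* and 1.17 for *Nfil3* among clock genes, and 0.91 for *Sult1d1* and 1.14 for *Fmo5* among enzymes of foreign compounds. Negative values were -1.32 for *Nnmt* and, in the cholesterol list, -1.09 for *Lss*, -1.49 for *Sc5d*, -1.06 for *Fdft1* and -0.67 for *Hsd17b7*. Without WT replicate 2 of ZT8 *Klf9* did not pass, at a difference of 0.80, while the GR targets *Mt1*, *Ddit4* and *Angptl4* passed. The clock genes *Dbp* (-1.61), *Nr1d1* (-1.19) and *Tef* (-0.56), and *Il1r1* (1.7) and *Abcd2* (-0.95), passed in that fit but not with all libraries. *Hmgcs1* (-1.49) and *Mup17* (3.77) were past the threshold in that fit too. Of all 104 differences with all libraries 49 were positive and 55 negative. Of the 146 without WT replicate 2 of ZT8, 55 were positive and 91 negative. The fitted value of *Hsph1*, -8.79, rests on GR LKO livers at 0 at ZT8 and is no measure of size.

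Between the diets the genotype effect of 10 genes differed at ZT8 by the same kind of test. A negative value is a more negative effect on caloric restriction, and it was -1.96 for *Serpina3k*, -3.80 for *Cyp17a1*, -1.30 for *St3gal5*, -2.06 for *Wfdc21*, -1.86 for *Acnat2*, -0.92 for *Megf9* and -1.07 for *Fbxo31*. For *Fbf1* the difference was 1.66 and for *Alas2* 1.04. For *Elovl3* it was 8.73, a fitted value that rests on WT livers at 0 on caloric restriction and is no measure of size. *Cyp17a1* was low in both genotypes on control diet. Without WT replicate 2 on caloric restriction *Acnat2* (-1.71), *Alas2* (1.04), *Fbxo31* (-0.97) and *Fbf1* (a ratio of 2.84 against 3.16) did not pass, while *Car3*, *Il1r1*, *Cdip1*, *Gm10698* and *Fam19a5* did. On control diet at ZT8, 14 sets of 4 values were looked at, for *Nr3c1*, the 5 genes with the smallest p between the diets and the library totals in each genotype, and no value lay far enough from the others to be singled out.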

How the results depend on the processing

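Of 308 genes called at ZT8, DESeq2 called 305 and 698 in all, RLE factors gave 309, no filter on low counts 323, unrounded counts 308, a single fit of the 36 libraries 724 and a test against a 1.5-fold change 62. With each library left out in turn the number ran from 56 to 315. At ZT8 on caloric restriction replicate numbers do not pair the mice (correlations of same-numbered deviations -0.0561, -0.0498 and 0.0543). This was not looked at in the other groups. With the replicate block 151 genes were called at ZT8, 130 of them among the 308. For the difference between ZT8 and ZT12, 104 calls became 462 in DESeq2, 88 without the filter and 8 with the replicate block, and ran from 34 to 146 over the leave-outs. The difference between ZT8 and ZT4, 0 in edgeR with 502 at an unadjusted p under 0.05, became 25 in DESeq2 and 1 without the filter, stayed at 0 with the replicate block and ran from 0 to 1 over the leave-outs. The difference between the diets, 10 calls, became 127 in DESeq2, 13 without the filter, 6 with the replicate block and 11 with mice 1 to 3 of the control diet, and ran from 4 to 35 over the leave-outs. The causes were not tested, and leaving out a library changes the number of libraries and the mice present together. The leave-outs of single libraries for each gene list were added after seeing the data.

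Of 64 called named genes none changed sign in the 13 alternatives, and 17 stayed past the threshold in all of them (*Nr3c1*, *Hao2*, *Tcf24*, *Gm14440*, *Cyp17a1*, *Eif4ebp3*, *Dct*, *Acnat2*, *Serpina3k*, *Slc3a1*, *Fdps*, *Gsta1*, *Il6ra*, *Nnmt*, *Arhgef37*, *Fbf1* and *St3gal5*). Of 36 named genes not called, 8 passed in at least 1 alternative and 11 changed sign with a library left out. These ran over the leave-outs from -0.63 to 0.16 for *Dusp1* (highest without WT replicate 3), -0.52 to 0.08 for *Ddit4*, -0.08 to 0.24 for *Cdkn1a* (-0.06 without GR LKO replicate 3), -0.26 to 0.32 for *Clock* (-0.21 without WT replicate 1), -0.01 to 0.27 for *Per2* and -0.02 to 0.17 for *Per3*. They ran from -0.07 to 0.05 for *Cry2* (-0.02 without WT replicate 2), -0.06 to 0.04 for *Nr1d2*, -0.11 to 0.05 for *Rora* (0.01 without GR LKO replicate 3), -0.12 to 0.01 for *Tef* and -0.14 to 0.15 for *Hlf* (0.03 without GR LKO replicate 1).

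With 3 mice per genotype and 16.53 to 20.29 M counts per library, differences in genes of a few CPM were not detectable unless large, and a missing call does not show that a gene is equal in both genotypes. Whole liver mixes cell types, WT replicate 2 stood apart, and for genes at 0 in a genotype the assignment of reads to transcripts was not tested.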
